A study of Homo sapiens with 6 samples.

Results

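The circadian clock genes described here are CLOCK, ARNTL (also named BMAL1), PER1, PER2, PER3, CRY1, CRY2, NR1D1, NR1D2 and DBP, which together make up the transcriptional core of the daily oscillator and its best known direct output. Members were found by gene symbol in the deposited RNA sequencing table, and each symbol was represented by its transcript of highest mean. All 10 members had a row among the 19223 symbols of the table, and all 10 were among the 12725 genes that passed the filter on low values. RNA was measured in LoVo cells, an epithelial line derived from a colorectal adenocarcinoma. Control cells received no DCC-2036 and the other cells received 2.5 μM DCC-2036 (rebastinib), a small molecule inhibitor of tyrosine kinases, with 3 libraries in each group. The labels give a treatment time of 48 h, whereas a legend in the paper gives a shorter time. Neither a synchronisation of the cells nor the hour of harvest is given in the sources used here, so each value is a single snapshot and carries no phase or amplitude of a rhythm.

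Each library had 1 deposited value per transcript. These are not whole numbers and are read here as adjusted for depth, though their normalization is not given in the sources used here, and the number of reads behind them is unknown. The values summed to 38997229, 39956227 and 40587145 in Control replicates 1 to 3 and to 43279603, 45957597 and 48023306 in DCC-2036 replicates 1 to 3. The same 16068 symbols were above 0 in all 3 DCC-2036 libraries and none in only part of them, whereas 1878 symbols were above 0 in only part of the Control libraries, and what this pattern does to the spread within groups was not tested. No source states that the libraries of a group came from separate cultures, so p-values measure only the spread between these samples, which may be technical. Because the RNA came from whole cultures, fewer cells of a kind and less RNA per cell cannot be told apart. Of 9 markers of colorectal epithelium, 7 passed the filter, with KRT8 the most abundant, whereas CDX1 was listed at 0 in all 6 libraries and VIL1 reached at most 4.12. The summed value of these markers was 104483, 108192 and 114998 in Control libraries against 148337, 163485 and 188447 with DCC-2036. These markers did not rise together, since KRT20 was called lower (log2 fold change -1.15, adjusted p = 0.00427), KRT8 (0.84, adjusted p = 0.00287) and CDH1 (adjusted p = 0.000354) were called higher, and EPCAM (0.29), KRT18 (0.37), KRT19 (0.04) and CDX2 (-0.09) were not called. Of these calls only that of CDH1 held with each library left out, since KRT8 was lost without Control replicate 1, 2 or 3 or DCC-2036 replicate 2 (adjusted p from 0.0116 to 0.0154) and KRT20 without Control replicate 1 (0.0173) or 3 (0.0182). Sums of 6 fibroblast markers ranged from 369.6 to 553 with COL1A1 the most abundant, sums of 5 leukocyte markers from 220.0 to 307 with CD68 the most abundant and PTPRC at 0, and sums of 4 endothelial markers from 10.5 to 41.3 with VWF the most abundant. The part of the column totals and of the epithelial markers in these results was not tested.

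In the clock of mammalian cells, CLOCK and ARNTL form a heterodimer that binds E-box elements and activates the PER, CRY, NR1D and DBP genes. PER and CRY proteins accumulate, enter the nucleus and repress this heterodimer, which closes the main feedback loop. In a further loop the NR1D receptors repress ARNTL through their response elements, and on D-box elements the activators DBP, TEF and HLF compete with the repressor NFIL3.

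LoVo cells treated with DCC-2036 exhibited called changes of clock genes in both directions (limma, adjusted p-value under 0.01, the limit for a call throughout). CRY1 and CRY2 rose, PER3, NR1D1 and DBP fell, and the other 5 members were not called. Over all 12725 genes tested, 19.2% (2442) were called higher and 22.7% (2887) lower, beside 2 and 3 of the 10 members. The 3 DCC-2036 values lay wholly above the 3 Control values in 4 members and wholly below in 4, beside 32.9% and 38.1% of all genes tested. These counts lie near the background, and the median log2 fold change was 0.02 over the members and -0.09 over all genes, so the counts alone single out nothing about the clock. With values scaled to equal library totals, 1 member was called higher and 4 lower, with CRY2 lost and CLOCK added, and over all genes 1716 were higher and 3388 lower, which took the share of higher genes among calls from 45.8% to 33.6%. That scaling moved the median over all genes by -0.19, to -0.28 on the log2 scale. Scaling by median of ratios went the other way, with 2704 genes higher and 2627 lower, a share of 50.7% higher. Its median over all genes was -0.008, and 2 members were called higher and 3 lower.
Calls depended on single libraries. Without Control replicate 1, 968 genes were called higher and 1571 lower, and limma called 0 members in either direction. Without Control replicate 2 the calls were 942 and 1502 genes, with 1 member higher and 0 lower. Without Control replicate 3 they were 965 and 1534 genes, with 0 members higher and 1 lower, and without DCC-2036 replicate 2 they were 929 and 1650 genes, with 1 member higher and 2 lower. Calls rose without DCC-2036 replicate 1 (2717 and 3444 genes, 3 and 3 members) and without DCC-2036 replicate 3 (2501 and 3198 genes, 2 and 3 members). At an unadjusted p-value under 0.05, 3 members were higher and 4 lower in the full set and in each of the 4 fits that lost calls, beside 30.5% and 36.1% of all genes in the full set, and 26.5% to 27% and 31.6% to 32.4% in those fits. For each of the 8 members without overlap, a two-sided exact permutation test over the 6 libraries gave p = 0.1, the smallest p-value that 3 against 3 can give.

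The members differed widely in level. Orders and ratios per kilobase assume that the deposited values were not already divided by transcript length, which is not given. Per kilobase of transcript, the mean Control level was highest for NR1D1 (757). CLOCK had 546 or 214 and CRY2 88.9 or 170, depending on which of their transcripts was taken, so their places in the order are open. Among the others, PER1 (370), NR1D2 (292) and DBP (197) followed NR1D1, CRY1 (101 ± 14, SD, n = 3) and ARNTL (92.6 ± 7.83) did not differ beyond their spread, and PER2 (67.1) and PER3 (24.8) were lowest. In DCC-2036 libraries, with CLOCK (397 or 153) and CRY2 (157 or 307) again set aside, NR1D1 (467), NR1D2 (408), PER1 (344) and CRY1 (250) led the order, and each overlapped its neighbour in the libraries' values per kilobase. ARNTL (109) followed without overlap, DBP (81.4) overlapped both ARNTL and PER2 (75.3), and PER3 was again lowest at 9.18 per kilobase. The levels of DBP and CRY1 per kilobase thus changed places, from 197 and 101 in Control to 81.4 and 250 in DCC-2036.

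CLOCK, the partner of ARNTL in the activating heterodimer, measured 2360.1, 2290.0 and 1996 in the Control libraries, against 1768, 1576 and 1487 with DCC-2036. All DCC-2036 values lay below all Control values, with the lowest Control value in replicate 3 and the highest DCC-2036 value in replicate 1. The mean was 2215 ± 193 (SD, n = 3) in Control and 1610 ± 144 in DCC-2036, 72.7% of Control, and the log2 fold change of -0.46 (standard error, SE, 0.12, 95% interval -0.75 to -0.17) missed the limit for a call at an adjusted p of 0.0159. The adjusted p was 0.00528 when limma was run with a trend of variance on level, and with equal library totals the log2 fold change was -0.65 and CLOCK was called just under the limit (adjusted p rounded to 0.01). ARNTL, the indispensable subunit of the heterodimer, stood at 275, 256 and 232 across Control replicates and at 291, 305 and 300.2 across DCC-2036 replicates. Its groups did not overlap either, but in the other direction and by a narrow gap, with a mean of 254 ± 21.5 in Control and 299 ± 6.96 after treatment. The resulting log2 fold change of 0.24 (SE 0.11, 95% interval -0.02 to 0.49, adjusted p = 0.0917) was not called, and it was 0.05 with values scaled to equal library totals. The subunits of the heterodimer therefore lay on opposite sides of Control in the deposited values, neither past the limit.

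PER genes encode the limiting repressors of the loop, and PER1 and PER2 are also immediate early genes that respond to cyclic AMP and glucocorticoids. PER1 reached 1648, 1740.3 and 1834 in Control libraries, with 1754, 1737 and 1361 in treated libraries. The groups overlapped, since DCC-2036 replicates 1 and 2 lay within the Control range and only replicate 3 lay below it. Its log2 fold change was -0.11 (SE 0.13, 95% interval -0.44 to 0.21, adjusted p = 0.478), and it ranged from -0.30 with equal library totals to 0.01 without DCC-2036 replicate 3. PER2 measured 449, 417 and 419.6 in the Control libraries, against 533, 503 and 406 with DCC-2036. Here DCC-2036 replicates 1 and 2 lay above every Control value and replicate 3 below every one. The log2 fold change of PER2 was 0.16 (SE 0.13, 95% interval -0.16 to 0.47, adjusted p = 0.324). It was -0.03 with equal library totals, 0.08 without DCC-2036 replicate 1 and 0.27 without DCC-2036 replicate 3 (adjusted p = 0.0439). Exact permutation tests gave p = 0.6 for PER1 and p = 0.4 for PER2.

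PER3, the paralog least required for the oscillator itself, stood at 164, 173 and 132 across Control replicates and at 78.6, 43.5 and 51.9 across DCC-2036 replicates. The highest DCC-2036 value, in replicate 1, was well below the lowest Control value, in replicate 3. The mean fell from 156 ± 21.4 (SD, n = 3) to 58.0 ± 18.3, 37.1% of Control, a log2 fold change of -1.45 (SE 0.23, 95% interval -2.01 to -0.89, adjusted p = 0.00261), which was the largest decrease among the members. The call was lost without Control replicate 1 (log2 fold change -1.41, adjusted p = 0.0137) and without Control replicate 2 (-1.37, adjusted p = 0.0133). All 5 PER3 transcripts in the table passed the filter and were called lower in a fit with every transcript tested separately, with log2 fold changes from -1.48 to -1.41. In that fit 19.7% of 32323 transcripts were called higher and 22.4% lower. Transcripts of a gene share reads and are not independent measurements.

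Promoters of PER3 and PER2 are shown because both hold a D-box, the element on which DBP, TEF, HLF and NFIL3 act, and PER3 was called lower whereas PER2 was not called. The sequences are RefSeq windows on GRCh38.p14 from 250 bases before to 50 after an annotated start, 5′ to 3′ on the strand of the gene, with D-box letters (TTATGTAA or TTACGTAA, either strand) and E-prime box letters (CACGTT, either strand) in capitals. PER3 lies on the plus strand of chromosome 1 (gene span chr1:7784320-7845177) with its window at chr1:7784041-7784340, and PER2 on the minus strand of chromosome 2 (gene span chr2:238244038-238290102) with its window at chr2:238288561-238288860.
PER3: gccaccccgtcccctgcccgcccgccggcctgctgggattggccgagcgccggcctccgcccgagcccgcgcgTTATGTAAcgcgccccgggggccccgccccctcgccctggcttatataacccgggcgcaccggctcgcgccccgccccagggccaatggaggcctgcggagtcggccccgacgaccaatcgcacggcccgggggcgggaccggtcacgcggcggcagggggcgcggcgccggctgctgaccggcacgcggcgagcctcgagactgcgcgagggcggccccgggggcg
PER2: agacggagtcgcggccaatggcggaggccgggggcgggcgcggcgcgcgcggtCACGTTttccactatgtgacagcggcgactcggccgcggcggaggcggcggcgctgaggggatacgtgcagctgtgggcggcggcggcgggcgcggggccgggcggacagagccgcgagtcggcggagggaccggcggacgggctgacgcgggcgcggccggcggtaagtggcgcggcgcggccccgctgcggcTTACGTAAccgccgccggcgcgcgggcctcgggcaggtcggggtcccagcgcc
The PER3 window held a D-box 177 bases before the start, and a window at another annotated start of PER3 held none of the motifs searched. In the PER2 window a D-box began 3 bases before the start and an E-prime box began 197 bases before it. The D-box letters occurred in 1.01% of all 35116 RefSeq windows of this length and in 3 of the 15 windows of the clock members, and the E-prime letters in 5.34% and in 5 of 15. No matches within the member windows overlapped. A match describes the letters of a window and shows no binding.

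CRY1 and CRY2, the flavoproteins that repress the CLOCK and ARNTL heterodimer most strongly, were the members called higher. CRY1 reached 338, 371 and 280.5 in Control libraries, with 662, 749 and 1036 in treated libraries. Every DCC-2036 library lay above every Control library, and DCC-2036 replicate 3 was the highest. Its mean rose from 330.0 ± 45.7 (SD, n = 3) to 815 ± 196, 247% of Control, with a log2 fold change of 1.29 (SE 0.20, 95% interval 0.81 to 1.76, adjusted p = 0.00225), the largest increase among the members. The call was lost without Control replicate 1 (1.31, adjusted p = 0.0112) and without Control replicate 3 (1.18, adjusted p = 0.0114). CRY2 measured 360.1, 393 and 367 in the Control libraries, against 745, 677 and 552 with DCC-2036. No values of the groups overlapped, and within DCC-2036 replicate 3 was the lowest for CRY2 where it had been the highest for CRY1. The mean of CRY2 rose from 374 ± 17.6 to 658 ± 98.3, 176% of Control, a log2 fold change of 0.81 (SE 0.14, 95% interval 0.48 to 1.14, adjusted p = 0.00317). This call was lost with equal library totals (0.62, adjusted p = 0.0187) and without Control replicate 1 (0.78, adjusted p = 0.0165), Control replicate 2 (0.84, adjusted p = 0.0135), Control replicate 3 (0.79, adjusted p = 0.0163) or DCC-2036 replicate 2 (0.78, adjusted p = 0.0165). The other CRY2 transcript had a log2 fold change of 0.84 and was also called.

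The CRY1 promoter is shown as that of the member with the largest increase. CRY1 lies on the minus strand of chromosome 12 (gene span chr12:106991364-107093829), and its window is chr12:107093500-107093799, with E-prime box letters in capitals in their reverse complement form.
CRY1: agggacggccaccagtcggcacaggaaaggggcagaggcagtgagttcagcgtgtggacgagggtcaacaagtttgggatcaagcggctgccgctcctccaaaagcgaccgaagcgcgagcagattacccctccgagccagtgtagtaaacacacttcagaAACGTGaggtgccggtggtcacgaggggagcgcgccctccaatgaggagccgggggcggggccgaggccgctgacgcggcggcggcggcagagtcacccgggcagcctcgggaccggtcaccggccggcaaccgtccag
The E-prime box began 89 bases before the start. The same letters were in 1 window each of CLOCK, PER2, CRY2 and NR1D1, members that fell, rose or were not called. The cAMP response element TGACGTCA, present in 1.85% of all windows, was in 0 of the 15 member windows.

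**Figure D1:**
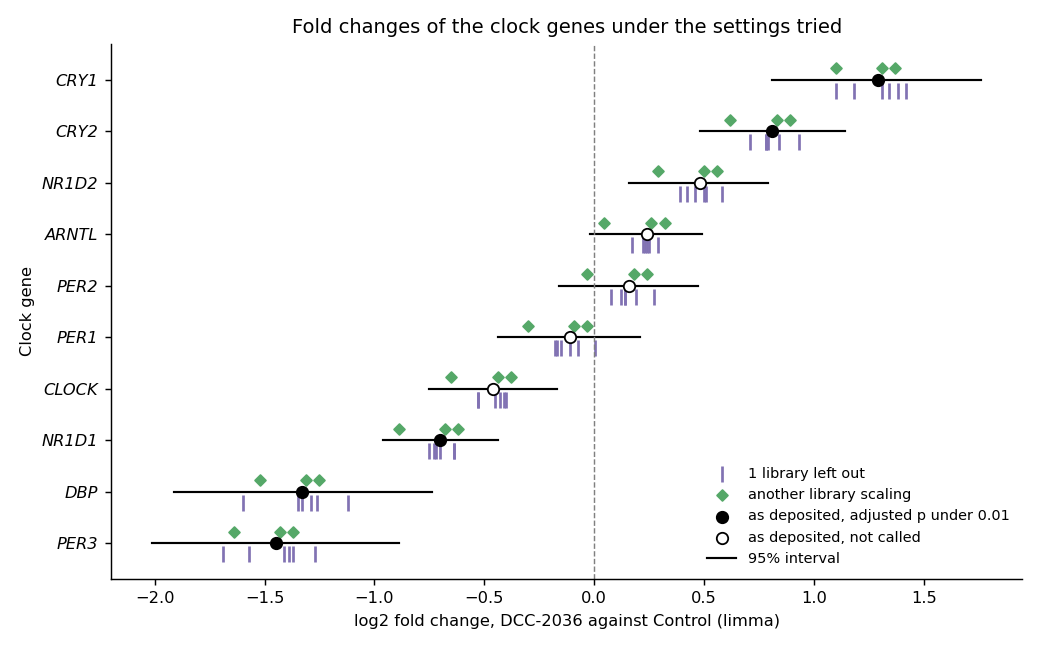
Log2 fold change (horizontal axis, DCC-2036 against Control, limma) of the 10 clock genes, ordered from the most increased (top) to the most decreased. Circles give the deposited values with 95% intervals, filled where adjusted p was under 0.01, diamonds give 3 other scalings and ticks give fits without 1 library. PER1 and PER2 lie on both sides of 0, and the other 8 members stay on 1 side in every fit drawn.

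The NR1D receptors, also called REV-ERB alpha and beta, are heme-binding repressors of ARNTL with overlapping functions, and their RNAs lay on opposite sides of Control. NR1D1 stood at 2019.6, 2015 and 2257 across Control replicates and at 1290.0, 1390.5 and 1200.0 across DCC-2036 replicates. The lowest Control value exceeded the highest DCC-2036 value by a wide margin. Its mean fell from 2097 ± 138 (SD, n = 3) to 1294 ± 95.3, 61.7% of Control, with a log2 fold change of -0.70 (SE 0.11, 95% interval -0.96 to -0.44, adjusted p = 0.00234). The call was lost without Control replicate 1 (-0.72, adjusted p = 0.0112), Control replicate 2 (-0.73, adjusted p = 0.0122) or Control replicate 3 (-0.64, adjusted p = 0.0134). NR1D2 reached 1609, 1580.5 and 1422 in Control libraries, with 1856, 2178 and 2406 in treated libraries. All DCC-2036 values exceeded all Control values, but those values were spread more widely than in Control. With a mean of 1537 ± 101 in Control and 2147 ± 276 in DCC-2036, NR1D2 had a log2 fold change of 0.48 (SE 0.13, 95% interval 0.16 to 0.79) and was not called (adjusted p = 0.0188). It was called without DCC-2036 replicate 1 (0.58, adjusted p = 0.00655) and in limma with a trend (adjusted p = 0.00652), and with equal library totals the log2 fold change was 0.29 (adjusted p = 0.0654).

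The NR1D2 promoter window at its downstream annotated start held more of the searched motifs than any other member window. NR1D2 lies on the plus strand of chromosome 3 (gene span chr3:23945260-23980618), and the window is chr3:23945871-23946170. Capitals mark the E-box (CACGTG), the D-box in its reverse complement form and the NR1D response element (TAGGTCA or TGGGTCA, either strand), in that strand's letters.
NR1D2: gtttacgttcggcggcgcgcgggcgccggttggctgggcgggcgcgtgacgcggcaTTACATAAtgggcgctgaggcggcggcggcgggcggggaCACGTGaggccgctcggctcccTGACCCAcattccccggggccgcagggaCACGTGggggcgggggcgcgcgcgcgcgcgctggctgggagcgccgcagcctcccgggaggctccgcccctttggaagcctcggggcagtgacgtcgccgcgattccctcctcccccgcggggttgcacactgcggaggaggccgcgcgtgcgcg
An E-box began 155 bases and another 105 bases before the start, the D-box 194 bases and the response element 133 bases before it. E-box letters occurred in 7.26% of all windows and in 2 of the 15 member windows, those of NR1D2 and PER1. Response element letters occurred in 5.69% of all windows and in 4 of the 15, in CLOCK, ARNTL, CRY2 and NR1D2. The NR1D1 window held an E-prime box 168 bases before the start, and the DBP window held none of the 5 motifs.

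DBP, an activator on D-boxes and a direct target of CLOCK and ARNTL, is often read as a marker of clock output. It measured 458, 435 and 423 in the Control libraries, against 255, 158 and 131 with DCC-2036. Control values were close to one another, and all DCC-2036 values were lower, with replicate 1 nearest to Control. The mean fell from 439 ± 17.7 (SD, n = 3) to 181 ± 65.0, 41.3% of Control, with a log2 fold change of -1.33 (SE 0.24, 95% interval -1.91 to -0.74, adjusted p = 0.00408). The call was lost without Control replicate 1 (-1.29, adjusted p = 0.019), Control replicate 2 (-1.33, adjusted p = 0.017), Control replicate 3 (-1.35, adjusted p = 0.017) or DCC-2036 replicate 2 (-1.26, adjusted p = 0.0183), and without a filter on low values (adjusted p = 0.0101). DBP lies on the minus strand at chr19:48630030-48637438 and overlaps the end of SPHK2, a sphingosine kinase gene on the other strand, by 688 bases. SPHK2 stood at 421, 450.5 and 449 across Control replicates and at 155, 172 and 192 across DCC-2036 replicates, a log2 fold change of -1.35 (SE 0.12, adjusted p = 0.000376). Whether reads were assigned by strand is not stated, so reads of DBP and SPHK2 within the overlap cannot be told apart. CA11, which lies within 1 kb of DBP on the same strand, had a log2 fold change of 0.69 (adjusted p = 0.0275).

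Other members also overlap annotated genes. NR1D1 (chr17:40092787-40100725) shares 1081 bases with THRA on the other strand, whose log2 fold change was 0.15 (adjusted p = 0.227). CLOCK (chr4:55427903-55547138) shares 25495 bases with TMEM165 on the other strand (-0.43, adjusted p = 0.0218), and NR1D2 shares 1332 bases with NKIRAS1 (-0.11, adjusted p = 0.388). PER3 overlaps UTS2 by 2095 bases, and UTS2 values were between 0.89 and 3.49. ARNTL (chr11:13276652-13387266) ends within 1 kb of BTBD10 on the other strand (-0.61, adjusted p = 0.0135, and called without DCC-2036 replicate 1 at -0.74). PER1 (chr17:8140472-8156506) shares 5691 bases with AC129492.3 on its own strand. This gene and the annotated noncoding neighbours of CLOCK, ARNTL, PER1, PER2, PER3 and CRY1 were not analysed here. The same holds for SEC1P, a pseudogene within 1 kb of DBP on the other strand, which had no row among the symbols. CRY2 (chr11:45847118-45883248) has no such neighbour in the annotation used.

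The table lists 22 transcripts of the members, and their log2 fold changes varied little within a gene. The 6 ARNTL transcripts ranged from 0.20 to 0.24, the 2 of NR1D2 from 0.47 to 0.48 and the 2 of CLOCK from -0.49 to -0.46, and none of these was called by limma. PER1, PER2, CRY1, NR1D1 and DBP had 1 transcript each.

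DCC-2036 replicates differed in their distance from Control. DCC-2036 replicate 1 was the library nearest to Control for CLOCK, ARNTL, PER3, CRY1, NR1D2 and DBP, 6 of the 8 members without overlap, whereas replicate 3 was nearest for CRY2 and replicate 2 for NR1D1. The column total of DCC-2036 replicate 1 was also the nearest to Control. The share of all genes with this order was not counted, so whether the order is particular to the members was not tested. Ratios of related genes within a library, taken per kilobase of the transcript of highest mean and on pairs picked after the values were seen, are given as a description without a test. The NR1D1 to NR1D2 ratio was 2.38, 2.42 and 3.01 in Control libraries against 1.32, 1.21 and 0.946 with DCC-2036, so that the balance between these repressors moved from NR1D1 toward NR1D2 in each DCC-2036 library. The CRY1 to CRY2 ratio was 1.21, 1.21 and 0.983 in Control libraries against 1.14, 1.42 and 2.41 with DCC-2036, and its groups overlapped. The other CRY2 transcript had higher means per kilobase (170 in Control and 307 in DCC-2036), which would lower these ratios. The order of CRY1 and CRY2 in Control is therefore open. PER2 exceeded PER3 by ratios of 2.71, 2.38 and 3.14 in Control libraries against 6.71, 11.4 and 7.75 with DCC-2036. The PER1 to PER3 ratio went from 13.5, 13.5 and 18.6 to 29.9, 53.5 and 35.2. Both PER ratios were thus higher in each DCC-2036 library than in any Control library. They share PER3 as denominator, which itself fell without overlap, so they are not results separate from the fall of PER3.

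Genes known to work beside the members were taken from 6 lists, and 50 of them passed the filter. HLF passed it only through its Control values and is set aside from the counts here. Of the other 49, 16 were called higher and 6 lower, beside 19.2% and 22.7% of all genes, and the median log2 fold change was 0.29. These shares of all genes are the background of each list below as well. With equal library totals 12 were called higher and 9 lower (median 0.10), beside 1716 and 3388 of 12738 genes (median -0.28). Higher calls thus became fewer both in the lists and over all genes, and whether the lists exceed that background was not tested. Scaling by median of ratios gave 18 and 7 with HLF counted, beside 2704 and 2627 of 12719 genes. No called gene of these lists had overlapping groups, but a call with 3 against 3 libraries makes this likely, so it adds no support. Over all genes tested, 32.9% lay wholly higher and 38.1% wholly lower. Without Control replicate 1 the counts were 3 higher and 2 lower, and they were the same without Control replicate 2, Control replicate 3 or DCC-2036 replicate 2, whereas they were 18 and 9 without DCC-2036 replicate 1 and without DCC-2036 replicate 3. The losses are given below as the range of adjusted p-values without the first 4 of these libraries, each left out in turn.

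Among paralogs and partners of the core loop, 1 of 5 tested genes was called higher and 2 lower (median -0.54), against 0 and 3 with equal library totals, where TIMELESS was called lower (-0.48, adjusted p = 0.00511). ARNTL2, a paralog that can stand in for ARNTL, stood at 435, 378 and 432 across Control replicates and at 157, 171 and 150.3 across DCC-2036 replicates, without overlap, and fell by 1.38 on the log2 scale (SE 0.11, adjusted p = 0.000315). BHLHE40 and BHLHE41, also called DEC1 and DEC2, encode repressors that compete for E-boxes, and they went in opposite directions. BHLHE40 reached 1203, 1109.8 and 1104 in Control libraries, with 1549, 2041 and 2150.2 in treated libraries and rose (log2 fold change 0.73, SE 0.15, adjusted p = 0.00599), whereas BHLHE41 measured 74.4, 67.6 and 58.8 in the Control libraries, against 22.8, 24.8 and 13.3 with DCC-2036 and fell (-1.71, SE 0.24, adjusted p = 0.00161). Within each library the BHLHE40 to BHLHE41 ratio per kilobase was 17.9, 18.1 and 20.8 in Control libraries against 75.1, 91.0 and 179 with DCC-2036. The BHLHE40 call was lost with equal library totals (0.54, adjusted p = 0.011) and without Control replicate 1, 2 or 3 or DCC-2036 replicate 2 (adjusted p from 0.02 to 0.027), whereas those of ARNTL2 and BHLHE41 held with each library left out. NPAS2, a paralog of CLOCK picked after its values were seen, stood at 299, 288 and 302 across Control replicates and at 229, 230.3 and 160.2 across DCC-2036 replicates and was not called (-0.54, adjusted p = 0.0267).

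Of the D-box factors other than DBP, only the call of NFIL3 is given. NFIL3, the D-box repressor, reached 488, 463 and 509 in Control libraries, with 928, 1454 and 1923 in treated libraries, far from overlap, and rose by 1.50 on the log2 scale (SE 0.26, adjusted p = 0.00333). HLF, a D-box activator at low level, measured 30.2, 16.4 and 27.7 in the Control libraries, against 10.3, 6.57 and 9.35 with DCC-2036. Only 1 DCC-2036 value reached the filter of 10, so HLF was tested because of its Control values, and no call is given for it. TEF, the remaining activator and picked after its values were seen, stood at 628, 694 and 761 across Control replicates and at 455, 339.7 and 159.9 across DCC-2036 replicates. Its groups did not overlap, its DCC-2036 replicates were widely spread, and the log2 fold change of -1.25 (SE 0.37) was not called (adjusted p = 0.0249). It was called without DCC-2036 replicate 1 (-1.57, adjusted p = 0.00724) and without DCC-2036 replicate 3 (-0.81, adjusted p = 0.00666). DBP and TEF thus lay lower and the repressor NFIL3 higher in every DCC-2036 library than in any Control library. Such separation was common, since 38.1% of all genes tested lay wholly lower and 32.9% wholly higher. The signs of the DBP, TEF and NFIL3 fold changes were the same under each of the scalings. The NFIL3 to DBP ratio per kilobase was 1.14, 1.14 and 1.29 in Control libraries against 3.90, 9.83 and 15.7 with DCC-2036. The NFIL3 call was lost without Control replicate 1, 2 or 3 or DCC-2036 replicate 2 (adjusted p from 0.0144 to 0.0156).

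Kinases and ubiquitin ligase parts that set the stability of PER and CRY proteins gave 8 calls higher and 1 lower among 14 tested genes, with a median of 0.48, and 6 higher and 2 lower with equal library totals, where BTRC (adjusted p = 0.0289) and CSNK2A1 (0.0494) were lost and CSNK2B was called lower (-0.52, adjusted p = 0.00392). CSNK1E, casein kinase 1 epsilon, which phosphorylates PER proteins, reached 1975, 1839 and 1841 in Control libraries, with 3414, 4268 and 5433 in treated libraries and rose by 1.19 on the log2 scale (SE 0.18, adjusted p = 0.00203). FBXW11, an F-box protein that binds phosphorylated PER, rose by 1.08 (adjusted p = 0.00264). GSK3B, a kinase acting on several clock proteins, rose by 1.02 (adjusted p = 0.000722), and PRKAA1, the catalytic subunit of AMP-activated kinase that marks CRY1 for degradation, rose by 0.82 (adjusted p = 0.0052). USP2, a deubiquitinase whose gene is itself under clock control, measured 136, 84.6 and 125 in the Control libraries, against 50.7, 47.5 and 24.2 with DCC-2036 and fell by 1.52 (SE 0.32, adjusted p = 0.00714). The GSK3B call held with each library left out in turn, whereas without Control replicate 1, 2 or 3 or DCC-2036 replicate 2 the calls were lost for CSNK1E (adjusted p from 0.0101 to 0.0115), FBXW11 (0.0124 to 0.0138), PRKAA1 (0.0193 to 0.0238) and USP2 (0.0123 to 0.0302). These are RNA values, and the amount or activity of the kinases was not measured in these libraries.

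Chromatin cofactors of the loop gave 3 calls higher and 0 lower among 11 tested genes (median 0.12), with SFPQ called lower as well at equal library totals (-0.61, adjusted p = 0.00328), and at an unadjusted p-value under 0.05 limma gave 5 higher and 3 lower, beside 30.5% and 36.1% of all genes. NCOR1, the corepressor through which NR1D proteins recruit a histone deacetylase, stood at 701, 561 and 594 across Control replicates and at 1182, 1668 and 2418 across DCC-2036 replicates and rose (1.45, SE 0.26, adjusted p = 0.00394). WDR5, which was found in PER complexes, rose by 0.82 (adjusted p = 0.00198) and CREBBP, an acetyltransferase that binds the heterodimer, by 0.77 (adjusted p = 0.00269). Each of these calls was lost without Control replicate 1, 2 or 3 or DCC-2036 replicate 2, with adjusted p from 0.0134 to 0.0183 for NCOR1, 0.0106 to 0.0116 for WDR5 and 0.0122 to 0.0157 for CREBBP.

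Of 7 tested outputs of the clock, 1 was called higher and 1 lower (median 0.13). NAMPT, the enzyme that limits NAD salvage, rose by 0.43 (SE 0.09, adjusted p = 0.00736), and WEE1, a kinase that holds cells before mitosis, reached 1084, 1065 and 1068 in Control libraries, with 651, 681 and 702 in treated libraries and fell by 0.66 (SE 0.09, adjusted p = 0.00154). NAMPT was not called with equal library totals (0.24, adjusted p = 0.0494). Without Control replicate 1, 2 or 3 or DCC-2036 replicate 2, adjusted p was 0.0325 to 0.038 for NAMPT and 0.0101 to 0.0111 for WEE1.

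The list of signals that induce PER genes also holds targets of the glucocorticoid receptor. It gave 2 calls higher and 2 lower among 10 tested genes (median 0.07). TSC22D3, also named GILZ and a target of the glucocorticoid receptor, measured 126, 104 and 119 in the Control libraries, against 955, 1487 and 2069 with DCC-2036. The lowest DCC-2036 value was several times the highest Control value, and the log2 fold change was 3.62 (SE 0.28, adjusted p = 0.000287), a call that held with each library left out. NR3C1, the glucocorticoid receptor gene, stood at 356, 320.3 and 355 across Control replicates and at 567, 639.6 and 735 across DCC-2036 replicates and rose by 0.90 (SE 0.13, adjusted p = 0.00169), with the call lost without Control replicate 2 (0.85, adjusted p = 0.0107). FKBP5, another glucocorticoid receptor target, reached 1572, 1512 and 1595 in Control libraries, with 1070.0, 907 and 679 in treated libraries and went the other way (-0.84, SE 0.18, adjusted p = 0.00679). CREB1, the factor that binds cAMP response elements of PER genes, fell by 0.89 (SE 0.16, adjusted p = 0.00401). Without Control replicate 1, 2 or 3 or DCC-2036 replicate 2, adjusted p was 0.0228 to 0.0283 for FKBP5 and 0.0155 to 0.0196 for CREB1. PER1 and PER2 were not called.

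The genes whose profile over the 6 libraries was most like that of PER3, the member with the largest absolute change, were found by the root mean square difference of log2 profiles centred on their own mean. BCDIN3D was nearest (difference 0.057, log2 fold change -1.55), followed by LYSMD1 (0.075, -1.45) and LPIN3 (0.089, -1.32). BCDIN3D reached 147, 160.1 and 120.3 in Control libraries, with 68.3, 37.0 and 42.5 in treated libraries, the same order of high and low libraries as for PER3.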

How the data were processed

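RNA of 6 LoVo libraries was grouped by sample titles into 3 Control and 3 DCC-2036 libraries. The authors deposited a signal, 1 value for each of 45006 RefSeq transcripts and library, read here as adjusted for depth from the values alone. Their fold change, p-value and q-value columns are in the same table and were not used. The aligner, counting, normalization, strand use and genome build are not given in the sources used here. Between 0.12% and 0.219% of values above 0 lay within 0.001 of a whole number, so reads were not recovered and depth is unknown.

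Symbols were kept with a value of 10 or more in 3 or more libraries. Log2(value + 1) was fitted with limma 3.58.1 in R 4.3.3 without covariates, two-sided, with Benjamini-Hochberg adjustment over all genes tested, and a gene was called where its adjusted p-value was under 0.01. This scale understates changes of low values. The code was tested on simulated data. Exact permutation tests and plots used Python 3.11.15, numpy 2.4.6, pandas 2.3.3, scipy 1.17.1 and matplotlib 3.10.9. Gene spans and transcript lengths came from GENCODE 29 on GRCh38, matched through RefSeq accessions, and promoters from RefSeq (GRCh38.p14), with 15 windows for the 10 members.

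Named genes were all members, up to 5 called genes per list with the largest absolute log2 fold change, genes overlapping or within 1 kb of a member, and the 3 genes most like the most changed member. Part of the listed genes is not reported here. The members and lists were chosen with earlier results of these data known, and the motifs and ratio pairs after the values were seen. Alternatives were 3 scalings, 2 filters, another pseudocount (0.1), the replicate number as a block, omission of each library, a variance trend, summed or separate transcripts, and other limits for a call.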

Additional observations from a re-analysis of the deposited data

How the results depend on the processing

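Of 160 values of single members under the alternatives, 134 kept their direction and their side of the limit for a call, 20 lost a call, 4 gained one and 2 changed sign. PER2 changed sign with equal library totals (-0.0321, and -0.04 with transcripts fitted separately) and PER1 without DCC-2036 replicate 3 (-0.18 to 0.00554 with each library left out), both from values within the spread between libraries. With equal library totals 1 member was called higher, and 12 companion genes higher and 10 lower. Where an absolute log2 fold change of 1 was required as well, 944 genes, 1 member and 6 companion genes were called higher and 1930, 2 and 4 lower. An adjusted p-value limit of 0.05 gave 25 companion genes higher and 16 lower, beside 3630 and 4290 of all 12725 genes, and no filter on low values gave 12 and 4, beside 1749 and 2154 of 16667 genes. With transcripts fitted separately, 6379 were called higher and 7250 lower. With each library left out in turn, 929 to 2717 genes were called higher and 1502 to 3444 lower, 0 to 3 members higher and 0 to 3 lower, and 3 to 18 companion genes higher and 2 to 10 lower. The causes were not tested. Whether replicate numbers pair the samples is not given in the sources used here. Same-numbered libraries had correlations of deviations from the group means of 0.081, -0.035 and -0.003 over 12725 genes, and only those numbered 1 correlated best with each other. With 3 libraries in each group these correlations cannot decide whether samples were paired. With the replicate block, 1202 genes were called higher and 1909 lower, 0 members higher and 2 lower, with CRY1 (adjusted p = 0.0125), CRY2 (0.0118) and NR1D1 (0.0139) lost, and 8 companion genes higher and 3 lower. Companion counts here include HLF. Read depth is unknown, so the precision of low values such as those of HLF cannot be given.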
